A study of Homo sapiens with 2 samples.

Results

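MALAT1, NEAT1, TUG1 and KCNQ1OT1 are long non-coding RNAs (lncRNAs) that are known to act, wholly or largely, in the nucleus. They were chosen by gene name, with their values in these libraries already known, and all 4 have a row in the deposited table of 18781 genes. The RNA came from T47D, a wild-type human luminal breast cancer cell line grown in DMEM with fetal bovine serum. Lysates were incubated with protein A beads that carried either an antibody to IMP1 or normal IgG, and RNA that stayed on the washed beads was sequenced (RIP-seq). IMP1 is a mainly cytoplasmic RNA-binding protein that controls the localization, stability and translation of its RNA targets. The methods describe a lysis with NP-40 detergent and the use of the supernatant of a high-speed centrifugation. The series has 1 library of the IMP1 precipitate and 1 of the IgG precipitate, with the cell line and culture in common, so no difference below has a replicate check. No input library was analysed here. Levels are in FPKM, fragments scaled to the length of the transcript and to the size of the library, as the authors gave them.

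MALAT1 is an abundant, mostly unspliced RNA of nuclear speckles, bodies that store splicing factors, and its 3′ end is cut by RNase P and protected by a triple helix. NEAT1 is the scaffold of paraspeckles, nuclear bodies built by the proteins NONO, SFPQ and PSPC1 on its long isoform. TUG1 is a spliced lncRNA found in the nucleus and in the cytoplasm, and a part of it keeps introns and stays nuclear. KCNQ1OT1 is a very long unspliced antisense RNA that is made from the paternal chromosome at an imprinted locus and silences neighbouring genes in cis.

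The sum over all genes was 353885 FPKM for the IMP1 library against 1298363 FPKM for the IgG library, and 1202 and 7270 genes were listed at 0. Depth is unknown, since FPKM came without counts. Genes were compared as the log2 ratio of (FPKM + 0.1), IMP1 over IgG, which understates the difference for low genes. Of all genes 29.9% were at least 2-fold lower in the IMP1 library and 39.9% were at least 2-fold higher, and the median log2 ratio was 0.40. Rescaling the IMP1 values to a median ratio of 1 over genes that reach 1 FPKM in each library is a log2 shift of 0.79, and rescaling to the same sum is a shift of 1.88. Of 12 luminal markers 11 were above 0 in both libraries, and TFF1 was listed at 0 with IgG. Only 2 of 15 mesenchymal markers were listed at 0 with IgG, so a value above 0 does not set luminal cells apart. KRT19, a keratin of luminal cells, had 371 FPKM in the IMP1 library against 78.8 FPKM with IgG.

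MALAT1 and NEAT1 were far lower in the IMP1 precipitate than in the IgG precipitate, while TUG1 was at a like level in both and KCNQ1OT1 was near 0 in both. MALAT1 (ENSG00000251562, chromosome 11, 65265233 to 65273940, hg19) had 9.32 FPKM in the IMP1 library against 1380 FPKM in the IgG library. The IgG level was 148 times the IMP1 level, a log2 ratio of -7.19. NEAT1 (ENSG00000245532, chromosome 11, 65190245 to 65213011) had 5.2 FPKM in the IMP1 library against 210.5 FPKM with IgG. Its IgG level was 40.5 times the IMP1 level, a log2 ratio of -5.31. These are levels of RNA that stayed on the beads, not of RNA in the cells. In such bulk precipitates, fewer contributing cells and less RNA on the beads per cell cannot be told apart. TUG1 (ENSG00000253352, chromosome 22, 31366663 to 31375381) had 20.6 FPKM in the IMP1 library against 16.3 FPKM with IgG. Its log2 ratio was 0.34, on the opposite side of 0 from MALAT1 and NEAT1. KCNQ1OT1 (ENSG00000269821) had 0.00176 FPKM in the IMP1 library against 0.00369 FPKM with IgG. Of the 4 lncRNAs 2 were at least 2-fold lower in the IMP1 library and 0 were at least 2-fold higher. These values were known when the lncRNAs were chosen, so that the count of 2 is read as no result beside the 29.9% of all genes.

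**Figure D1:**
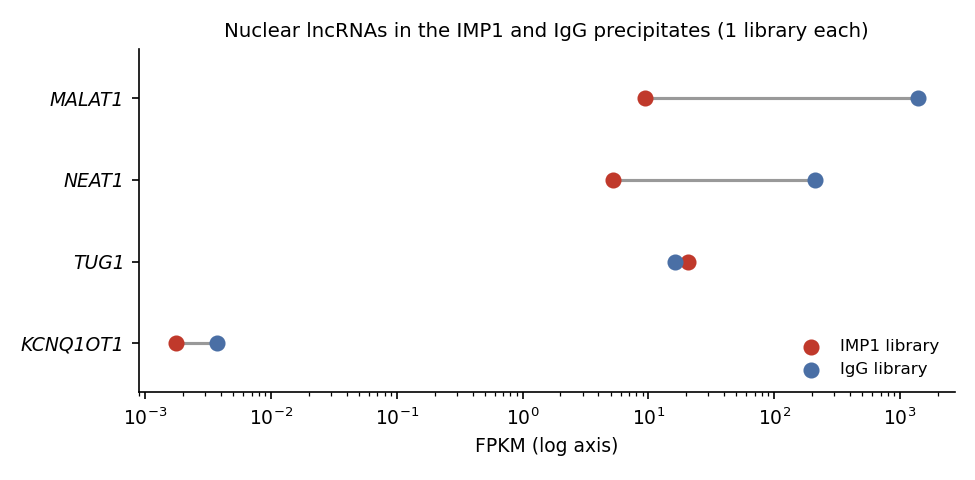
FPKM (log axis) of each lncRNA in the IMP1 library (red) and the IgG library (blue), 1 library each, joined by a grey line. MALAT1 spans 9.32 to 1380 FPKM and NEAT1 5.2 to 210.5 FPKM, TUG1 lies at 20.6 and 16.3 FPKM, and KCNQ1OT1 lies under 0.01 FPKM in both.

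The order of the 4 lncRNAs was not the same in the libraries. With IgG, the order of levels was MALAT1, NEAT1, TUG1 and KCNQ1OT1. In the IMP1 library TUG1 was the highest, followed by MALAT1, NEAT1 and KCNQ1OT1. With 1 library each, the spread of a level is unknown, so that no neighbours in these orders can be called different. MALAT1 ranked 39 of all genes in the IgG library and 2346 in the IMP1 library. NEAT1 ranked 164 with IgG and 3820 in the IMP1 library. TUG1 moved the other way, from rank 2493 with IgG to rank 1043 in the IMP1 library.

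Ratios between RNAs within a library do not depend on how the libraries are scaled to each other. MALAT1 was at 84.7 times the level of TUG1 in the IgG library and at 0.452 times its level in the IMP1 library. NEAT1 was at 12.9 times the level of TUG1 with IgG and at 0.252 times its level in the IMP1 library. The nuclear body RNAs were thus above TUG1 in one precipitate and below it in the other. MALAT1 was at 6.56 times the level of NEAT1 with IgG and at 1.79 times its level in the IMP1 library. MALAT1 therefore differed between the libraries 3.65 times more than NEAT1 did.

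Each RNA's part of the summed FPKM was compared as well. MALAT1 held 0.106% of the sum with IgG and 0.00263% in the IMP1 library. NEAT1 held 0.0162% with IgG and 0.00147% in the IMP1 library. TUG1 held 0.00126% with IgG and 0.00583% in the IMP1 library. Seen as a part of the sum, TUG1 was thus more than 2-fold higher in the IMP1 library. On the deposited scale it was not past 2-fold, and its log2 ratio was 1.13 after rescaling to the median ratio and 2.21 after rescaling to the same sum. MALAT1 and NEAT1 stayed lower in the IMP1 library under both rescalings, with log2 ratios of -5.33 and -3.46 at the same sum.

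Genes with high IgG levels were more often lower than higher in the IMP1 library. Of the 320 genes with at least 100 FPKM with IgG, 52.5% were at least 2-fold lower in the IMP1 library and 4.06% were at least 2-fold higher, and their median log2 ratio was -1.10. MALAT1 belongs to this level group and lay below the group's median. The 13 other genes within 1.5-fold of its IgG level, among them ACTB, RPL12 and TMSB4X, had a median of 481 FPKM in the IMP1 library, and 0 of them were as low there as MALAT1. The lowest of them, the clone-named RP11-777B9.5, had 45 FPKM in the IMP1 library. For NEAT1, 8 of the 108 other genes within 1.5-fold of its IgG level were lower in the IMP1 library. Their median there was 120 FPKM.

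TUG1 stood apart from genes of its IgG level in the opposite direction. Among the 3400 genes with 10 to 100 FPKM with IgG, 66.3% were at least 2-fold lower in the IMP1 library and 4.21% were at least 2-fold higher. Of the 1833 other genes within 1.5-fold of the IgG level of TUG1, 1667 had a lower value in the IMP1 library than TUG1, and their median there was 5.06 FPKM. Among the 905 other genes within 1.5-fold of its IMP1 level the median log2 ratio was -0.04. TUG1 was thus in the middle of genes with a like IMP1 level and high among genes with a like IgG level.

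**Figure D2:**
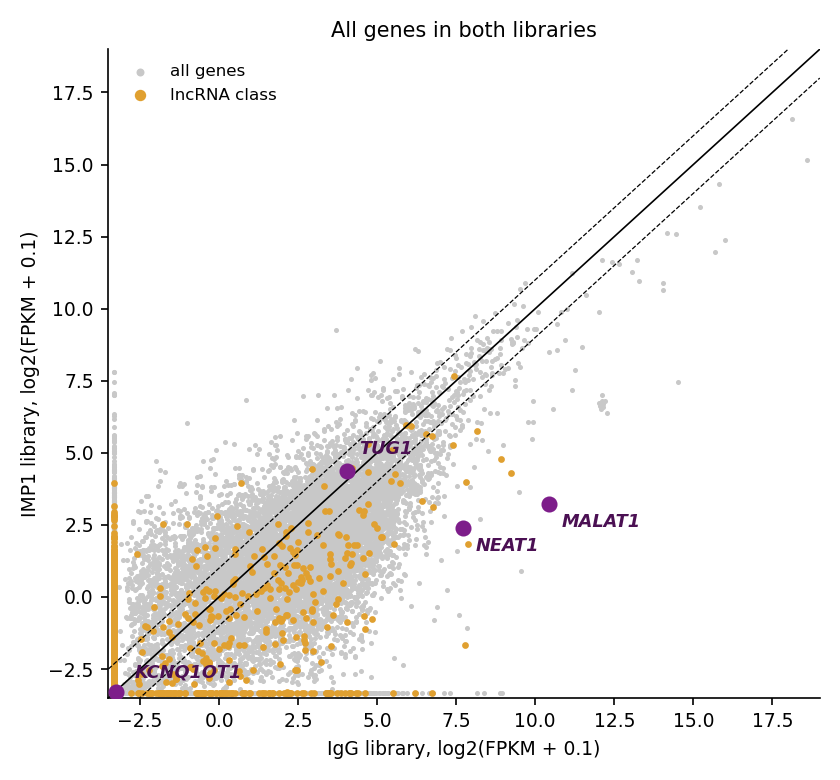
Each point is a gene, with log2(FPKM + 0.1) in the IgG library on the x axis and in the IMP1 library on the y axis; orange points are genes of the lncRNA class, purple points the 4 lncRNAs, the solid line marks equal levels and the dashed lines 2-fold. MALAT1 (log2 ratio -7.19) and NEAT1 (-5.31) lie far below the lower dashed line, TUG1 (0.34) lies between the dashed lines, and KCNQ1OT1 lies in the corner near 0.

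Among lncRNAs that reached 1 FPKM in each library, MALAT1 and NEAT1 had small log2 ratios and TUG1 a large one. The class, taken from RefSeq (assembly GRCh38.p14), held 1105 genes, and TUG1, which RefSeq now lists as protein-coding, was added to it. MALAT1 was the highest of these 1106 genes with IgG and ranked 24 in the IMP1 library. NEAT1 ranked 8 with IgG and 47 in the IMP1 library, and TUG1 ranked 56 and 13. Of the 114 genes of the class that reached 1 FPKM in each library, 61.4% were at least 2-fold lower in the IMP1 library and 4.39% were at least 2-fold higher. With TUG1 added, MALAT1 had the smallest log2 ratio of the 115 and NEAT1 ranked 3 from the smallest. LINC00338 lay between them, with 3.48 FPKM in the IMP1 library against 235 FPKM with IgG. The limit of 1 FPKM left out LINC00910, with 0.212 FPKM in the IMP1 library against 219 FPKM with IgG. Its log2 ratio of -9.45 was smaller than that of MALAT1. Of all 18781 genes, 85 had a smaller log2 ratio than MALAT1 and 334 a smaller one than NEAT1. TUG1 ranked 10 from the largest of the 115. Over all 1105 genes of the class the median log2 ratio was 1.22, above the 0.34 of TUG1.

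The genes most like each lncRNA were taken as the 3 nearest by distance in log2(FPKM + 0.1) over the 2 libraries. MALAT1 had no gene within a distance of 0.5, and the nearest was IFI27, an interferon-induced gene, at 1.03, with 12.2 FPKM in the IMP1 library against 713 FPKM with IgG. The next were SNHG3, a snoRNA host gene, at 1.60 and SCARNA2, a small Cajal body RNA, at 2.17. NEAT1 also had 0 genes within 0.5, and its nearest were LINC00338 at 0.59, CD74, the invariant chain of antigen presentation, at 0.61 and PDCD5 at 0.72. TUG1 had 149 genes within 0.5, and the nearest were ERP29, PRKAG1 and AUP1, all protein-coding. The pair of nuclear body RNAs therefore sat in a sparse region of the plot of all genes, and TUG1 in a crowded one.

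KCNQ1OT1 lay under 0.01 FPKM in both libraries. Its row spans chromosome 11 from 2465914 to 2882798, a merged locus of 416885 bases that also covers its host gene KCNQ1, which was not analysed here. In the IMP1 library 391 genes above 0 were lower than KCNQ1OT1, and in the IgG library 272 were. To describe what few fragments are worth, FPKM was multiplied by length in kb over loci between 1 and 3 kb, and the lowest 5% of these products lay below 0.0706 for IMP1 and below 0.318 for IgG. The value of KCNQ1OT1 reaches this bound for a transcript of 40.2 kb in the IMP1 library and of 86.2 kb in the IgG library. Its log2 ratio of -0.03 was set by the added 0.1 FPKM, and 896 other genes lay within a distance of 0.5 of it. Both lengths are shorter than its listed locus. The transcript length behind its FPKM is not given in the sources used here, so that how many fragments its values stand for is unknown.

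MALAT1 and NEAT1 are neighbours, with 52221 bases between them, yet most genes around them were not lower in the IMP1 library. On the side of NEAT1, FRMD8, which codes for a FERM domain protein, had 2.22 FPKM in the IMP1 library against 2.08 FPKM with IgG. DPF2, a subunit of a chromatin remodelling complex, had 6.5 and 8.46 FPKM. On the side of MALAT1, LTBP3, which binds latent TGF-beta, had 15.2 FPKM in the IMP1 library against 0.323 FPKM with IgG. SSSCA1 had 15.3 and 7.17 FPKM. Of the 9 nearest listed genes other than the pair, 1 was at least 2-fold lower in the IMP1 library and 6 were at least 2-fold higher. The shares of all genes were 29.9% and 39.9%. The lower one of the 9 was AP000769.7, a clone-named transcript listed at the same locus as MALAT1. It had 0.795 FPKM in the IMP1 library against 20.9 FPKM with IgG. Its fragments and those of MALAT1 cannot be told apart where they overlap, since the strand setting is not given in the sources used here.

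At the TUG1 locus, 2 clone-named transcripts are listed at the same position. RP3-430N8.11 had 11.9 FPKM in the IMP1 library against 14.5 FPKM with IgG, like TUG1 without a 2-fold difference. RP3-430N8.10 had 6.68 FPKM in the IMP1 library and was listed at 0 with IgG. MORC2, the chromatin ATPase next to TUG1, had 1.52 and 2.45 FPKM. SELM, a selenoprotein gene on the other side, had 20.1 FPKM in the IMP1 library against 122 FPKM with IgG. Fragments could be split between the 3 transcripts of the TUG1 locus, which makes each of their levels uncertain.

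The imprinted genes next to KCNQ1OT1 had low levels, and most had no value with IgG. CDKN1C, a growth inhibitor that KCNQ1OT1 is known to silence on the paternal copy, had 0.195 FPKM in the IMP1 library and was listed at 0 with IgG. SLC22A18 had 2.44 FPKM and PHLDA2 had 1.69 FPKM in the IMP1 library, and both were listed at 0 with IgG. CD81, a tetraspanin, had 34.6 and 15.3 FPKM. The histone chaperone NAP1L4 had 8.02 FPKM in the IMP1 library against 34.6 FPKM with IgG, and was the only one of these 10 neighbours that was at least 2-fold lower. Of the 10 neighbours 8 were listed at 0 with IgG, beside 7270 of all 18781 genes. Over all loci together, 4 of the 30 neighbouring genes were at least 2-fold lower and 19 were at least 2-fold higher. The shares of all genes were 29.9% and 39.9%. Of the 30 neighbours 14 were listed at 0 with IgG. The median log2 ratio of the 30 was 1.53, and -0.25 among the 16 above 0 in both libraries. For all genes these medians were 0.40 and -0.72.

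**Figure D3:**
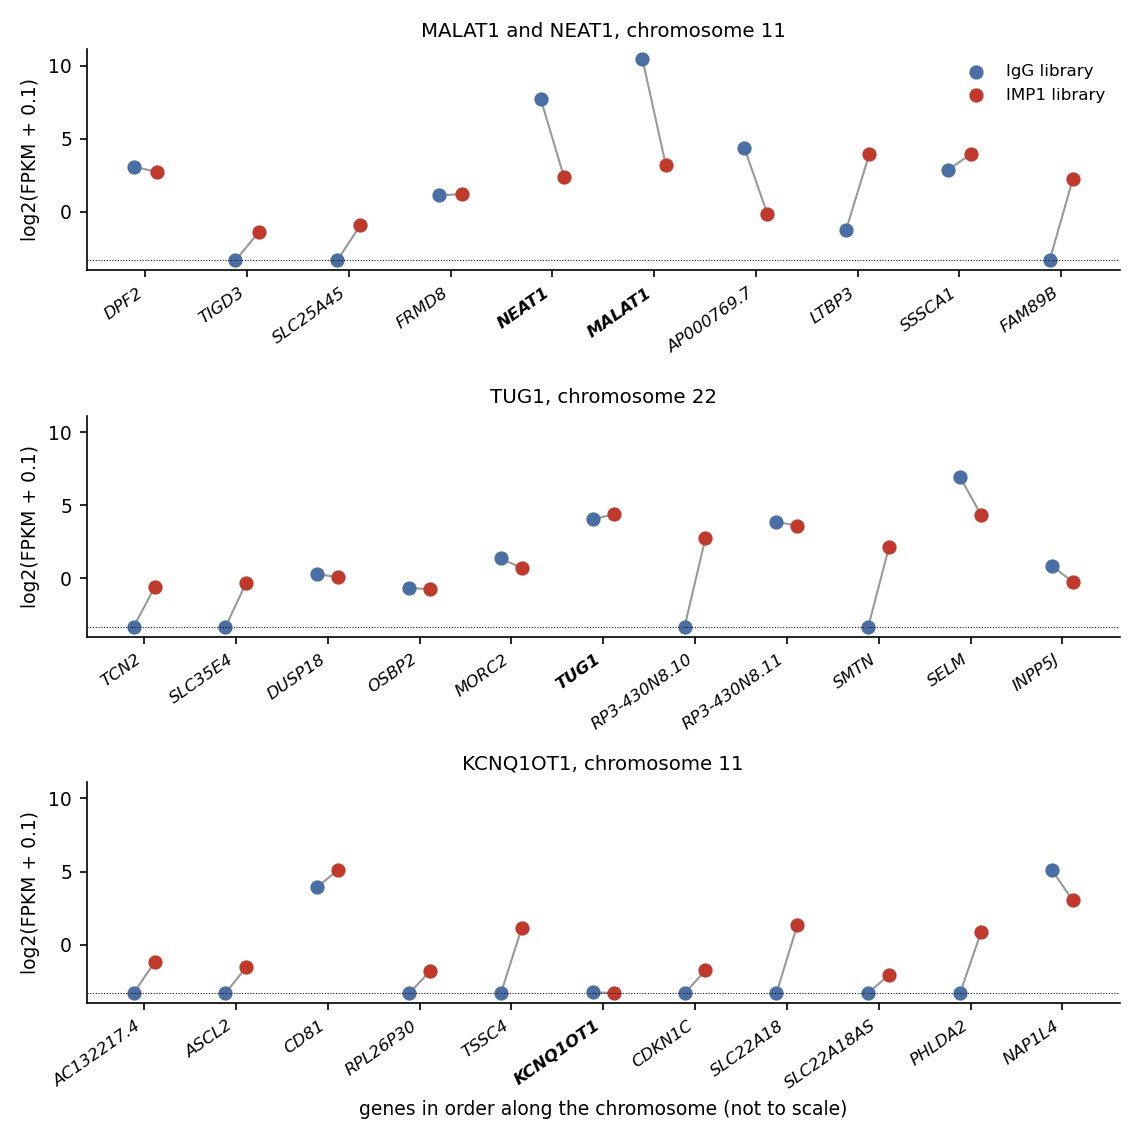
log2(FPKM + 0.1) of the lncRNAs (bold) and of the 5 listed genes on either side of MALAT1, TUG1 and KCNQ1OT1. Values are from the IgG library (blue) and the IMP1 library (red), in order along the chromosome and not to scale. NEAT1 is drawn among the neighbours of MALAT1, so that CDC42EP2, a neighbour of NEAT1 alone, is not drawn. Also, 1 neighbour of MALAT1 is not shown. The dotted line is the value of a gene listed at 0. NEAT1, MALAT1 and AP000769.7 slope down steeply from IgG to IMP1, while LTBP3 and SSSCA1 near them slope up.

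Of 16 other lncRNAs known for nuclear roles, 10 have a row. Of these 10, 5 were at least 2-fold lower in the IMP1 library and 3 were at least 2-fold higher, with a median log2 ratio of -1.15. The shares of all genes were 29.9% and 39.9%, with a median of 0.40. The 3 higher ones, and also GNAS-AS1, were listed at 0 with IgG and had at most 0.529 FPKM in the IMP1 library. Above 0 in both libraries were 5, with a median of -2.03, beside a median of -1.45 and 61.4% lower in the lncRNA class that reached 1 FPKM in each library. Of these 5, 4 were at least 2-fold lower, which is not read as particular to nuclear lncRNAs. TERC, the RNA template of telomerase, had 26.3 FPKM in the IMP1 library against 105 FPKM with IgG, and SNHG14, the long transcript of the Prader-Willi locus, had 3.35 and 19.3 FPKM. PVT1, the neighbour of MYC, had 2.70 and 11.4 FPKM, and FTX, a lncRNA of the X inactivation centre, had 0.547 and 4.29 FPKM. HOTAIR, which is transcribed from the HOXC cluster, was near equal with 2.60 and 3.26 FPKM. MEG3, an imprinted lncRNA, was listed at 0 in the IMP1 library and had 1.06 FPKM with IgG. The remaining lncRNAs were DLEU2 (0.529 FPKM), CDKN2B-AS1 (0.165 FPKM), LINC-PINT (0.108 FPKM) and GNAS-AS1 (0.0676 FPKM), all in the IMP1 library. None of the 10 had a log2 ratio as small as NEAT1 or MALAT1. At the same sum, a shift of all genes, 2 were lower and 5 higher, beside 2433 lower and 11962 higher of all 18781 genes. The median of the list was then 0.70, against 1.87 for all genes.

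Cytoplasmic lncRNAs spread over both directions. Of 17 listed, 7 were at least 2-fold lower and 3 were at least 2-fold higher, with a median log2 ratio of -0.46. The shares of all genes were 29.9% and 39.9%. At the same sum 2 of the 17 were lower and 9 higher, beside 2433 lower and 11962 higher of all 18781 genes. The median over all genes above 0 in both libraries was -0.72. DANCR and H19 in this list were picked by the study from these libraries. SNHG12 had 0.382 FPKM in the IMP1 library against 10.6 FPKM with IgG, and SNHG1 had 9.91 and 86.3 FPKM, so that these snoRNA host genes also lay on the side of MALAT1. NORAD, listed as LINC00657 and known to sequester Pumilio proteins, had 47.4 and 106 FPKM. LINC00152 had 3.2 FPKM in the IMP1 library against 0.637 FPKM with IgG. H19 had 4.19 FPKM and was listed at 0 with IgG.

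mRNAs known for detained introns, which stay in the nucleus until they are spliced, had 7 of 12 genes at least 2-fold lower in the IMP1 library and 1 at least 2-fold higher, with a median log2 ratio of -2.26. Of all genes 29.9% were lower, and of genes with 10 to 100 FPKM with IgG 66.3% were lower, with medians of 0.40 and -1.61. That level group matches only a part of the list, since others, such as CLK1 and CLK4, lie below 10 FPKM with IgG. Whether the count of 7 is particular to these mRNAs was not tested, and it is not read so. At the same sum 5 were lower and 4 were higher, beside 2433 lower and 11962 higher of all 18781 genes. PNISR, which codes for a speckle protein, had 2.71 FPKM in the IMP1 library against 59.0 FPKM with IgG, and NKTR had 1.90 and 29.4 FPKM. CLK1 and CLK4, kinases of splicing factors, had 0.771 and 0.220 FPKM in the IMP1 library and 7.63 and 3.23 FPKM with IgG. CLK2, a kinase of the same family, went the other way with 4.35 FPKM in the IMP1 library against 1.39 FPKM with IgG. SNRNP70 was near equal, with 8.47 and 8.60 FPKM.

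The mRNAs of the proteins that share the nuclear bodies with MALAT1 and NEAT1 spread over both directions. Of 24 paraspeckle protein mRNAs 9 were at least 2-fold lower in the IMP1 library and 4 were at least 2-fold higher, with a median log2 ratio of -0.59. The shares of all genes were 29.9% and 39.9%. At the same sum 2 of the 24 were lower and 13 higher, beside 2433 lower and 11962 higher of all 18781 genes. The median of -0.59 lay near that of all genes above 0 in both libraries (-0.72). Most of the list lies at 10 to 100 FPKM with IgG, and of all genes at that level 66.3% were lower, with a median of -1.61. The list was thus less often lower than genes of that level, and the cause was not tested. Among the core proteins, SFPQ had 7.81 FPKM in the IMP1 library against 47 FPKM with IgG, and NONO had 24.2 and 54.2 FPKM. PSPC1 was on the other side, with 3.39 and 1.24 FPKM. The smallest ratios in the list were those of SRSF10 (5.70 and 59.9 FPKM) and TAF15 (7.48 and 69.7 FPKM). The largest were those of SMARCA4, an ATPase of chromatin remodelling (2.90 and 0.509 FPKM), and RBM14 (4.13 and 0.762 FPKM).

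Of 24 speckle protein mRNAs 13 were at least 2-fold lower and 2 were at least 2-fold higher, with a median log2 ratio of -1.24. Of all genes 29.9% were lower, and of genes with 10 to 100 FPKM with IgG 66.3% were, with a median of -1.61, so that this count is not read as particular to speckle mRNAs. SON, a core speckle protein, had 14.8 FPKM in the IMP1 library against 37.6 FPKM with IgG, while SRRM2, its partner, had 11.7 and 18.1 FPKM. RBM25 had 2.20 and 29.8 FPKM, and ACIN1 had 3.68 and 33.5 FPKM. U2AF2, which reads the polypyrimidine tract, had 7.69 and 1.41 FPKM. ALYREF, an mRNA export adaptor, had 14.9 FPKM and was listed at 0 with IgG, although it is broadly expressed. After rescaling to the same sum the speckle list had 2 lower and 10 higher, beside 2433 lower and 11962 higher of all 18781 genes. Its median was then 0.62, against 1.87 for all genes.

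Many genes that process or stabilise the 3′ end of MALAT1 had no value with IgG. The 13 genes have 14 rows, since RPP14 has 2, and 9 were at least 2-fold higher and 3 at least 2-fold lower. Of all genes 39.9% were higher and 29.9% were lower. Of the 14 rows 8 were listed at 0 with IgG, beside 7270 of all 18781 genes. The median log2 ratio was 3.48 over the 14 rows and -1.30 over the 6 above 0 in both. For all genes these medians were 0.40 and -0.72. RPPH1, the RNA of RNase P, had 2000.2 FPKM in the IMP1 library against 9951 FPKM with IgG. POP4, a protein of the same enzyme, had 15.2 and 65.1 FPKM. RPP38 had 7.91 FPKM, POP5 had 6.92 FPKM, the tRNA 3′ nuclease ELAC2 had 4.48 FPKM and METTL16, which binds the triple helix, had 1.36 FPKM in the IMP1 library, and all were listed at 0 with IgG.

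Polycomb and H3K9 methyltransferase mRNAs, whose proteins are known as partners of KCNQ1OT1, had counts near those of all genes. The list also holds DNMT1, a DNA methyltransferase, with 3.19 FPKM in the IMP1 library against 0.382 FPKM with IgG. Of 13 genes 4 were at least 2-fold lower and 6 were at least 2-fold higher, beside 29.9% and 39.9% of all genes. Their median log2 ratio was 0.74, and -0.86 among the 9 above 0 in both, against 0.40 and -0.72 for all genes. SUZ12 had 3.0 FPKM in the IMP1 library against 20.6 FPKM with IgG, and RNF2 had 3.96 and 12.2 FPKM. EHMT2 had 2.25 FPKM and EZH2 had 1.87 FPKM in the IMP1 library, and both were listed at 0 with IgG.

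**Figure D4:**
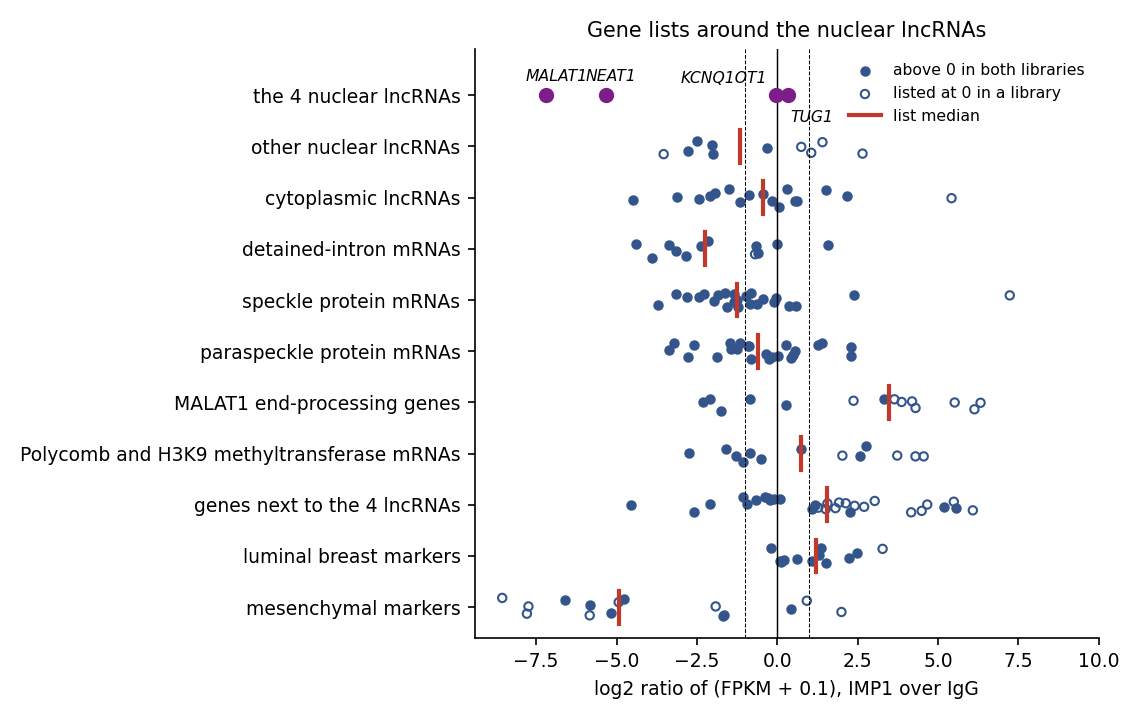
log2 ratio of (FPKM + 0.1), IMP1 over IgG, of each gene in each list; filled points are above 0 in both libraries, open points are listed at 0 in a library, red bars are list medians and dashed lines mark 2-fold. MALAT1 and NEAT1 lie below every gene of both lncRNA lists, and the detained-intron mRNAs have a median of -2.26.

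Most markers of other cell types moved in the direction of MALAT1 and NEAT1. Of 15 mesenchymal markers 12 were at least 2-fold lower in the IMP1 library, beside 29.9% of all genes, their summed level was 6.13 FPKM there and 238 FPKM with IgG, and 6 were listed at 0 in the IMP1 library, among them the defining markers DCN, LUM, COL1A2 and PDGFRB. Of 10 blood cell markers 5 have a row. Of these 5, 3 were at least 2-fold lower and 2 at least 2-fold higher, beside the same 29.9% and 39.9% of all genes. Their summed level was 7.54 and 327 FPKM, of which CD74 made up 6.42 and 305 FPKM. Luminal markers did not move in that direction. Of 12, 0 were at least 2-fold lower and 7 were at least 2-fold higher, beside 29.9% and 39.9% of all genes. Their summed level was 1839 FPKM in the IMP1 library against 778 FPKM with IgG. The part of other cells in the levels of MALAT1 and NEAT1 was not tested.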

How the data were processed

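RNA from 1 IMP1 precipitate and 1 IgG precipitate of T47D cells was measured by RNA-seq at a sequencing company, and the groups were taken from the labels. The authors deposited FPKM values per gene, on hg19 per the labels; the aligner, the FPKM software and the annotation are not given in the sources used here. Exact zeros, written as 1e-05, were set to 0, and 1 was added to each locus start. The deposited fold changes, p-values, q-values and the lists of genes chosen by them were not used. FPKM carry no counts, so depth is unknown and no interval was given.

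The log2 ratio of (FPKM + 0.1) was computed for 18781 genes with no filter. With 1 library per condition no test was run, and a gene was called past 2-fold by size. A total of 76 rows repeat a gene name. The lncRNA class was matched through Ensembl identifiers and symbols to RefSeq, from which no coordinates were taken. The 4 lncRNAs and all gene lists were chosen with earlier results of these data known. Genes named are the 4 lncRNAs, their neighbours and nearest genes, the listed nuclear lncRNAs, and, in each other list but the markers, the genes above 1 FPKM in a library with the 2 largest and 2 smallest log2 ratios and those whose role is described. LINC00910 is named for a log2 ratio below that of MALAT1. Genes compared by level lie within 1.5-fold. Alternatives were pseudocounts, filters, rescalings and a threshold. The code was tested on simulated data. The values of 1 neighbouring gene are not reported here, and it stays in the counts. Transcript sequences were not used here. Python 3.11.15, numpy 2.4.6, pandas 2.3.3 and matplotlib 3.10.9 were used.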

Additional observations from a re-analysis of the deposited data

How the results depend on the processing

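Each condition has 1 library, so that leaving out a replicate was not possible. No paired analysis was possible because there is no test and no pair of replicates. MALAT1 and NEAT1 were at least 2-fold lower in the IMP1 library under every alternative run. Except where a filter, threshold or scale sets the change by its construction, the cause was not tested. Depth is unknown, and the filter on 0.5 FPKM in a library removed KCNQ1OT1.

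The log2 ratio was -7.06, -5.09, 0.32 and -0.0028 for MALAT1, NEAT1, TUG1 and KCNQ1OT1 with a pseudocount of 1. It was -7.21, -5.34 and -0.22 for MALAT1, NEAT1 and KCNQ1OT1 with a pseudocount of 0.01. Rescaling to the median ratio gave -6.41, -4.53, 1.13 and -0.0090, and rescaling to the same sum gave -5.33, -3.46, 2.21 and 0.038, so that 1 of the 4 lncRNAs, TUG1, was at least 2-fold higher under either rescaling, against 0 without it.

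Over all genes, 5610 lower became 2433 at the same sum and 3249 at 4-fold. The 7488 higher became 3276 with a pseudocount of 1, 4867 with at least 0.5 FPKM in a library, 1807 above 0 in both, 11962 at the same sum and 4901 at 4-fold.

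For the lists, numbers lower and higher are given in that order, or 1 of them where only it moved by over 1.5 times. At the same sum they were 2 and 5 for other nuclear lncRNAs, 2 and 9 for cytoplasmic lncRNAs, 2 and 13 for paraspeckle mRNAs, 2 and 10 for speckle mRNAs, 4 higher for detained-intron mRNAs, 0 lower for end-processing genes, 0 lower for Polycomb mRNAs and 1 lower for neighbouring genes. At the median ratio they were 5 higher for cytoplasmic lncRNAs, 5 and 8 for paraspeckle mRNAs, 7 and 4 for speckle mRNAs and 1 lower for Polycomb mRNAs. At 4-fold they were 1 higher for other nuclear lncRNAs, 4 lower for cytoplasmic lncRNAs, 4 and 2 for paraspeckle mRNAs, 5 lower for speckle mRNAs, 0 higher for detained-intron mRNAs, 1 lower for Polycomb mRNAs and 12 higher for neighbouring genes. Above 0 in both libraries the number higher was 0 for other nuclear lncRNAs, 1 for speckle mRNAs, 1 for end-processing genes, 2 for Polycomb mRNAs and 5 for neighbouring genes. With a pseudocount of 1 the number higher was 0 for other nuclear lncRNAs and 9 for neighbouring genes, and 2 Polycomb mRNAs were lower. With at least 0.5 FPKM in a library 1 other nuclear lncRNA and 12 neighbouring genes were higher.

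Medians changed sign under rescaling or where genes were left out. At the same sum they were 0.70 for other nuclear lncRNAs, 0.62 for speckle mRNAs, 1.24 for cytoplasmic lncRNAs and 1.28 for paraspeckle mRNAs, and at the median ratio 0.24 for cytoplasmic lncRNAs and 0.21 for paraspeckle mRNAs. Above 0 in both libraries they were -1.30 for end-processing genes, -0.25 for neighbouring genes, -0.86 for Polycomb mRNAs and -0.72 for all genes, and the median of all genes was -0.21 with at least 0.5 FPKM in a library.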
